A study of Equus caballus with 12 samples.

Results

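Leukocyte miRNAs are described here as the known horse miRNAs named miR-142, miR-146, miR-150, miR-155 or miR-342, with any letter or arm suffix. They were chosen by name, and 6 of the 294 known miRNAs in the table were found: eca-miR-142-5p, eca-miR-146a, eca-miR-146b-5p, eca-miR-150, eca-miR-155 and eca-miR-342-5p. A further name of the rule was not analysed here, nor were other arms of these precursors. Small RNA was sequenced from the left ventricle of the heart, the caudal lobe of the right lung and the right lobe of the liver of 4 healthy Polish cold-blooded stallions aged 1 to 2 years, sampled at slaughter. Each tissue of each horse (27, 30, 32 and 34, the number in a library's title being taken as the horse) gave 1 library, so that there were 12 libraries and 4 per tissue. Whole tissue was used, so blood and resident immune cells were sequenced together with the cells of the organ.

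MiRNAs are short RNAs that guide a silencing complex to the 3' untranslated regions of mRNAs, mostly through the bases of the seed near their 5' end. In human and mouse, miR-142 is made almost only in blood lineage cells, and miR-150 marks mature lymphocytes, where it represses the transcription factor MYB. MiR-155 is cut from the transcript MIR155HG and rises when lymphocytes and macrophages are activated, whereas miR-146a and miR-146b, which share a seed, are induced through inflammatory signalling and repress the adaptors TRAF6 and IRAK1. MiR-342 lies in an intron of EVL, a gene of actin dynamics. In RefSeq's horse annotation all 6 members could be matched to a locus by name. There, the locus of miR-342 lies within EVL and that of miR-146b within C1H10orf95. The nearest protein-coding gene is TSPOAP1 for the locus of miR-142, PTTG1 for that of miR-146a and MRPL39 for that of miR-155.

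The values are normalized counts, that is, read counts that the authors divided by a size factor for each library. The table held 8113895 to 9355513 reads per heart library, 3536536 to 7560746 per lung library and 3066869 to 8595569 per liver library, estimated from the minimum read count of 6. The shallowest lung library was that of horse 34. A miRNA listed at 0 had fewer than 6 reads under its name in that library. The lowest value above 0 was 3.71 to 11.1 normalized counts. The tissues carried their defining miRNAs: the 4 heart muscle miRNAs summed to at least 5421580 in heart and at most 12356 in lung and 6437 in liver, the 3 hepatocyte miRNAs to at least 983907 in liver and at most 3278 elsewhere, and the 4 airway epithelium miRNAs to at least 42099 in lung and at most 1043 elsewhere. eca-miR-1, the main miRNA of heart muscle, alone took 43.2 to 51.7% of the known miRNA total in the heart libraries, but at most 0.235% in the others. The scaling of the libraries therefore matters when heart is compared. When every library was instead rescaled to an equal total (CPM), the median over the tested miRNAs shifted on the log2 scale by 1.03 for lung against heart, by -0.99 for heart against liver and by 0.11 for lung against liver.

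As a group, the leukocyte miRNAs were most abundant in lung. They took 1.50 ± 0.484% (SD, n = 4) of the known miRNA total there, with libraries between 0.856 and 2.01%, against 0.352 ± 0.0609% in liver (0.276 to 0.419%) and 0.115 ± 0.0190% in heart (0.0904 to 0.137%). No library of one tissue reached into the range of another. The difference was 1.38 percentage points between lung and heart, 1.14 between lung and liver and -0.238 between heart and liver. Each gave p = 0.0286 in an exact two-sided permutation test (4 against 4), the smallest p that this design allows. Paired within horses, the direction was the same in 4 of 4 horses in each comparison, and the exact sign exchange gave p = 0.125, the smallest p that 4 pairs allow, so that the paired test cannot reach 0.05. Among the lung libraries, that of horse 34 had the lowest share, and that of horse 32 the highest. In bulk tissue, fewer cells of a type and less RNA per cell cannot be told apart, nor can blood in the vessels and cells in the tissue. Reads of the members may also come from cells of the organ other than leukocytes, and their part was not tested.

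The place of liver above heart in this order rested mostly on eca-miR-146a. It made up 55.8 to 78.1% of the members' sum in lung and 65.7 to 83.0% in liver, but 16.5 to 35.9% in heart, where eca-miR-150 took 19.4 to 34.2% and eca-miR-342-5p 21.3 to 30.7%. Without eca-miR-146a the share in heart and liver differed by only -0.00997 percentage points (exact permutation p = 0.571), while lung remained above both. The heart total is also filled by eca-miR-1: with the heart muscle and hepatocyte miRNAs left out of the total, a choice made after seeing the data, the members took 0.268 ± 0.0622% in heart, 1.50 ± 0.485% in lung and 0.457 ± 0.0719% in liver (SD, n = 4), with no overlap between the tissues.

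**Figure D1:**
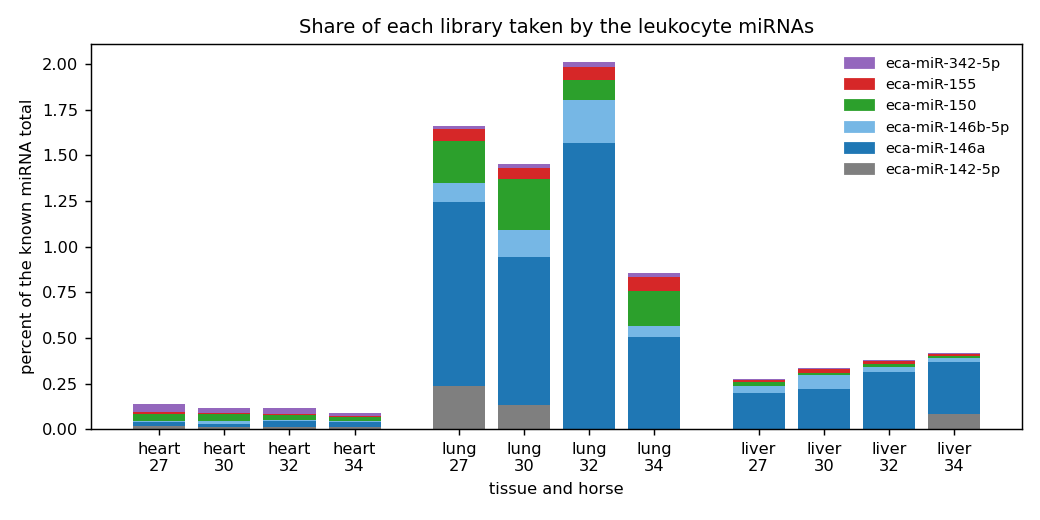
Percent of the known miRNA total taken by each leukocyte miRNA (stacked bars) in the 12 libraries, grouped by tissue with the horse number below. Lung libraries reach 0.856 to 2.01%, liver 0.276 to 0.419% and heart 0.0904 to 0.137%, and eca-miR-146a is the tallest segment in every lung and liver library.

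The feedback miRNA eca-miR-146a was highest in lung, lower in liver and lowest in heart. In horses 27, 30, 32 and 34 its normalized counts were 47669, 35730.5, 78929 and 19309 in lung, 11115, 10667, 13659.9 and 15705 in liver and 2403, 2292, 3409 and 4915 in heart. The tissues did not overlap. The lung libraries spread over a wider range than those of the other tissues, with horse 32 at the top and horse 34 at the bottom, and the coefficient of variation was 55.5% in lung, 18.4% in liver and 37.3% in heart. Its rank by abundance among the known miRNAs of a library was 14 to 31 in lung, 32 to 35 in liver and 58 to 73 in heart. The lung mean was 14.0-fold the heart mean and 3.55-fold the liver mean. By limma, with Benjamini-Hochberg adjustment over all tested miRNAs, lung exceeded heart with a log2 fold change of 3.69 (SE 0.39, adjusted p = 1.04e-05) and liver with 1.67 (SE 0.39, adjusted p = 0.00329), and heart versus liver gave -2.03 (SE 0.39, adjusted p = 0.000909).

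Its seed relative eca-miR-146b-5p was also highest in lung, but its libraries spread more. Lung held 4961, 6375, 11727 and 2152 normalized counts in horses 27, 30, 32 and 34, liver 1979, 3771, 1093 and 1348, and heart 392, 1786, 531 and 851. Lung stood above heart in every library. The liver library of horse 30, at 3771, lay above the lung library of horse 34. The heart library of horse 30, the highest of heart at 1786, lay within the liver range. Liver thus overlapped with both other tissues. The log2 fold change of lung versus heart was 2.82 (SE 0.60, limma adjusted p = 0.00219), and the means differed 7.08-fold. For lung versus liver it was 1.54 (SE 0.60, limma adjusted p = 0.0455), with lung higher in 4 of 4 horses. This call was lost in 12 of 25 alternatives, among them TMM scaling (adjusted p = 0.0539) and the fit of these 2 tissues alone (adjusted p = 0.0552). Leaving out horse 32 took it to 0.92 (adjusted p = 0.300), and leaving out only that horse's lung library to 1.16 (adjusted p = 0.131). Heart versus liver did not pass, at -1.28 (SE 0.60, limma adjusted p = 0.0879). It passed without the heart library of horse 30, at -1.70 (adjusted p = 0.0346), and under CPM, at -2.46 (adjusted p = 0.00117). The 2 mature miRNAs are nearly identical in sequence, so that reads could be assigned to the wrong one. Within a library, eca-miR-146a exceeded eca-miR-146b-5p 1.28 to 6.42-fold in heart, 5.60 to 9.61-fold in lung and 2.83 to 12.5-fold in liver, and these ranges overlapped.

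The activation miRNA eca-miR-155 was higher in lung than in both other tissues, with little spread. Its normalized counts in horses 27, 30, 32 and 34 were 3135, 2644, 3685 and 2741 in lung, 852, 721, 655 and 703 in heart and 860, 1033, 609 and 592 in liver. Every lung library lay above every library of the other tissues, and heart and liver lay across each other. Lung exceeded heart with a log2 fold change of 2.05 (SE 0.22, limma adjusted p = 1.2e-05) and liver with 2.01 (SE 0.22, limma adjusted p = 1.27e-05), which corresponds to 4.16 and 3.94-fold differences of the means. Between heart and liver the log2 fold change was -0.05 (SE 0.22, limma adjusted p = 0.880). Under CPM this value became -1.23 (adjusted p = 0.0013) with heart lower, so the relation of heart to liver depends on the scaling. Lung remained higher than both tissues under every alternative run.

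The lymphocyte miRNA eca-miR-150 was highest in lung, with heart in the middle and liver lowest. Lung held 10942, 12364, 5500 and 7486 normalized counts in horses 27, 30, 32 and 34, heart 4208, 4763, 2456 and 2650.01 and liver 1121, 500.5, 802 and 637. In normalized counts, the 3 tissues did not overlap. As a percent of the known miRNA total, heart held 0.0175 to 0.0417 and liver 0.0104 to 0.0202, which overlap. Lung held 0.109 to 0.281, above both. The log2 fold change was 1.35 in lung versus heart (SE 0.34, limma adjusted p = 0.00688), 3.56 in lung versus liver (SE 0.34, limma adjusted p = 4.03e-06) and 2.21 in heart versus liver (SE 0.34, limma adjusted p = 0.00018). The lung mean was 2.58-fold the heart mean and 11.9-fold the liver mean. All 3 calls were kept under each alternative run, although heart versus liver fell to 1.01 under CPM (adjusted p = 0.0315). Liver thus ranked the opposite way for eca-miR-150 and eca-miR-146a relative to heart: it was below heart in the former and above it in the latter, under the authors' scaling and under CPM. In heart and in lung, horses 27 and 30 had more eca-miR-150 than horses 32 and 34; in liver, horse 30 had the least.

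**Figure D2:**
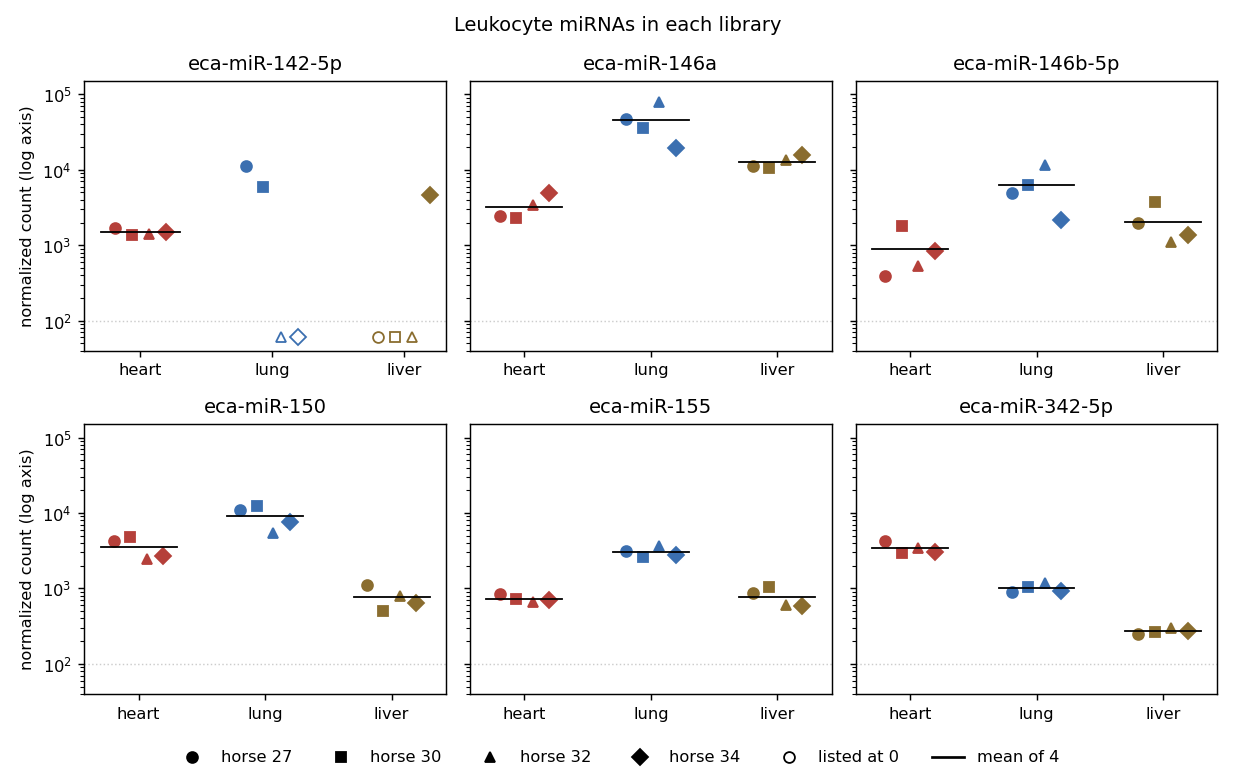
Normalized counts (log axis) of the 6 leukocyte miRNAs in heart, lung and liver, with a symbol for each horse, a line at the mean of 4 and open symbols for libraries listed at 0. On this scale, eca-miR-146a, eca-miR-150 and eca-miR-342-5p separate all 3 tissues, each in another order, and eca-miR-155 separates lung alone.

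eca-miR-342-5p, from the EVL locus, was the only one of the 6 with its highest normalized counts in heart in every horse. The heart libraries of horses 27, 30, 32 and 34 held 4241, 2965, 3424 and 3076, the lung libraries 883, 1042, 1186 and 928, and the liver libraries 252, 261, 297 and 272. The tissues were far apart in relation to the spread within them, which was 16.8% of the mean in heart, 13.4% in lung and 7.28% in liver. The heart mean was 3.39-fold the lung mean and 12.7-fold the liver mean. By limma, the log2 fold change was -1.76 in lung versus heart (SE 0.18, adjusted p = 8.79e-06), 1.89 in lung versus liver (SE 0.18, adjusted p = 4.03e-06) and 3.65 in heart versus liver (SE 0.18, adjusted p = 1.54e-08). The place of heart above lung depended on the scaling. TMM kept it (log2 fold change -1.66, limma adjusted p = 1.69e-05), and CPM did not. As a percent of the known miRNA total, heart held 0.0203 to 0.0421 and lung 0.0186 to 0.0243, which overlap, and under CPM the log2 fold change of lung versus heart was -0.42 (adjusted p = 0.201). In the rank order within a library, which no scaling alters, it stood at 55 to 66 in heart, then 94 to 105 in lung and finally 136 to 148 in liver. A rank also depends on how many other miRNAs of the library are abundant, so the ranks cannot decide between heart and lung. The heart library of horse 34 held 0.0203% at rank 66, and the lung library of horse 32 held 0.0236% at rank 94. The other heart libraries held a higher percent than every lung library. The position of liver below both other tissues was kept under each alternative run.

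eca-miR-142-5p, of the precursor most restricted to blood cells, could not be placed in an order. Heart held 1711, 1381, 1406 and 1491 normalized counts in horses 27, 30, 32 and 34, with little spread. Lung held 11309.7 and 5832 in horses 27 and 30 and was listed at 0 in horses 32 and 34, and liver was listed at 0 in all horses but horse 34, with 4607. Where it was detected in lung or liver it lay above every heart library, and elsewhere it lay below all of them. No comparison passed: the log2 fold change was -4.05 (SE 3.53, limma adjusted p = 0.369) in lung versus heart, 3.45 (SE 3.53, limma adjusted p = 0.451) in lung versus liver and 7.50 (SE 3.53, limma adjusted p = 0.0893) in heart versus liver. These values depend on how a 0 is treated. With each 0 set to missing, which was chosen after seeing the data, lung versus heart became 2.44 and heart versus liver -1.63. These are given as values without a test, since only 2 lung libraries and 1 liver library were left and dropping the zeros fixes the sign. Leaving out horse 34 removed the only liver library above 0. Lung versus liver then became 8.66 and heart versus liver 10.54, and both passed. With liver at 0 throughout, their signs were certain beforehand, and no conclusion is drawn from these calls. The same holds for heart versus liver without the liver library of horse 34 alone (10.54). In the fit of these 2 tissues alone, heart versus liver passed at 7.50 (limma adjusted p = 0.0444).

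A 0 beside a high value in the same tissue was not particular to this miRNA. Of the 144 known miRNAs that reached 1000 normalized counts in some library, 7 were listed at 0 in another library of the tissue in which they did so. eca-miR-107a had 33567, 0, 0 and 30697 in the lungs of horses 27, 30, 32 and 34, and eca-miR-103 had 36505, 50229.8, 27063 and 0. The libraries listed at 0 were not the same ones for each miRNA. These 2 were named after their values were seen, and the part that read assignment between similar names plays in the zeros was not tested.

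Read against all tested miRNAs, the leukocyte miRNAs were called often in the direction of lung. Calls required an adjusted p under 0.05 together with a change of 1 or more on the log2 scale, and 256 known miRNAs were tested, all 6 members among them. In lung versus heart, 4 of the 6 were called higher, where 19.5% of all tested miRNAs were, and 1 was called lower (eca-miR-342-5p), where 19.1% were. The libraries did not overlap for 5 of the 6, against 44.5% of all. In lung versus liver, 5 of 6 were called higher (25.0% of all) and none lower (26.6% of all). The libraries of 4 of 6 did not overlap (52.7% of all). All 6 values lay above 0, but that of eca-miR-142-5p (3.45, SE 3.53) rests on libraries listed at 0. In heart versus liver, eca-miR-150 and eca-miR-342-5p were called higher (19.9% of all) and eca-miR-146a lower (27.0% of all), and 3 of 6 did not overlap (52.3% of all), close to the background. The median log2 fold change of the 6 was 1.70, 1.95 and 1.08 in these comparisons, against 0.00, 0.08 and -0.23 over all tested. Under CPM the medians of the 6 were 3.02, 2.07 and -0.11. The 1.08 in heart versus liver counts eca-miR-142-5p (7.50), whose value rests on libraries listed at 0. The other members lay on both sides of 0 there, from -2.03 to 3.65, so this median gives no direction for the group. Each pair of comparisons shares a tissue, so the 3 sets of values are not independent.

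Under CPM, the split of all calls moved from 50 higher and 49 lower to 121 and 16 in lung versus heart, and from 51 and 69 to 27 and 137 in heart versus liver. In lung versus liver it was 70 and 66 against 64 and 68. The members' calls became 4 higher and none lower in lung versus heart, where eca-miR-342-5p was lost, and 2 higher and 3 lower in heart versus liver, where eca-miR-146b-5p and eca-miR-155 were added as lower in heart. The 5 calls in lung versus liver were the same under CPM.

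**Figure D3:**
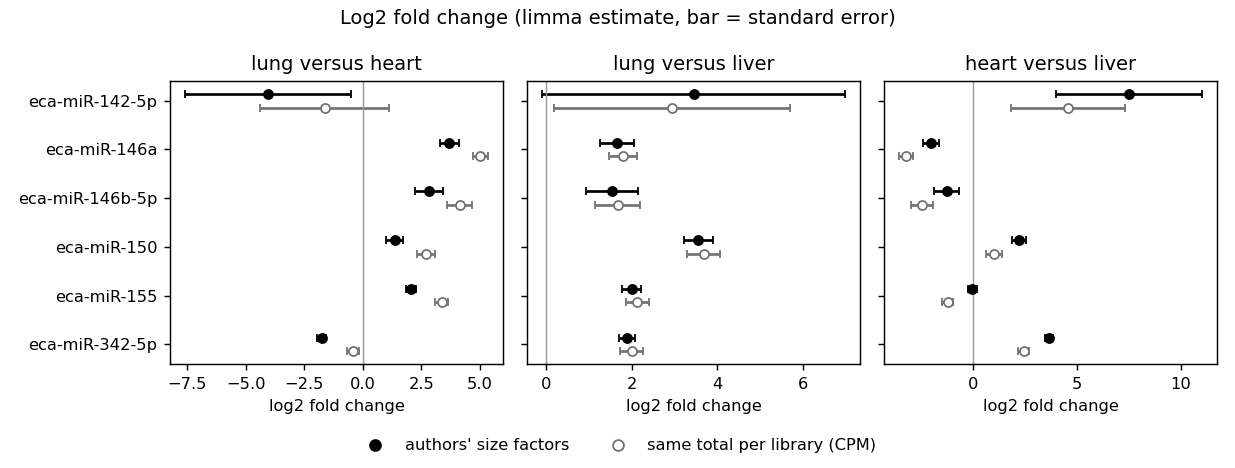
Log2 fold change of each leukocyte miRNA in 3 comparisons, as the limma estimate with its standard error, under the authors' size factors (filled) and with the same total per library (open). Values with heart in the comparison shift by similar amounts for the members without a 0, as from -1.76 to -0.42 for eca-miR-342-5p in lung versus heart, and those of lung versus liver stay nearly in place.

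**Figure D4:**
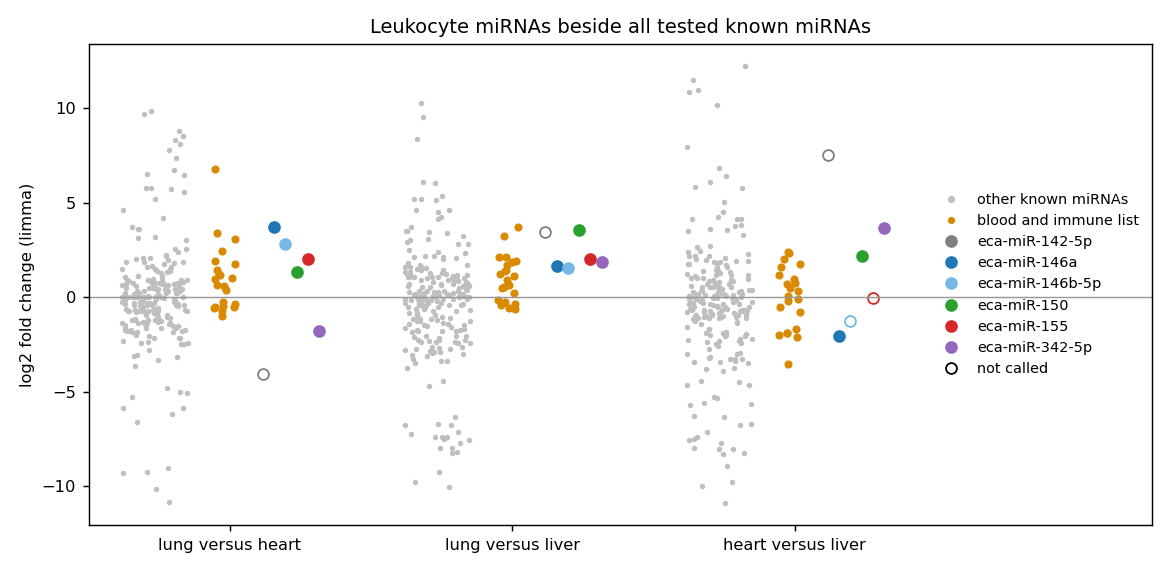
Log2 fold change of all 256 tested known miRNAs in 3 comparisons (grey), with the blood and immune list (orange) and the 6 leukocyte miRNAs (coloured, open where not called) beside them. In lung versus liver all 6 lie above 0, and in lung versus heart eca-miR-342-5p and eca-miR-142-5p lie below it. The values of eca-miR-142-5p rest on libraries listed at 0 and were not called.

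Ratios between members within a library are free of any scaling and show how the composition changed between tissues. The pairs were chosen after the values were seen, and the ratios are given as a description. For each read of eca-miR-155 there were 4.11 to 5.23 of eca-miR-342-5p in heart, but only 0.282 to 0.394 in lung and 0.253 to 0.489 in liver. Heart stood apart from both other tissues, which overlapped. Relative to eca-miR-150, eca-miR-342-5p was at 0.622 to 1.39 in heart, 0.224 to 0.523 in liver and 0.0807 to 0.216 in lung, with no overlap. eca-miR-146a relative to eca-miR-150 was at 0.481 to 1.85 in heart, while lung had 2.58 to 14.3 and liver 9.91 to 24.6. The lung of horse 32, at 14.3, lay within the liver range, and the other lung libraries lay below it. The ratio of eca-miR-155 to eca-miR-150 was 0.759 to 2.06 in liver, 0.214 to 0.670 in lung and 0.151 to 0.267 in heart, so liver was above both other tissues.

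**Figure D5:**
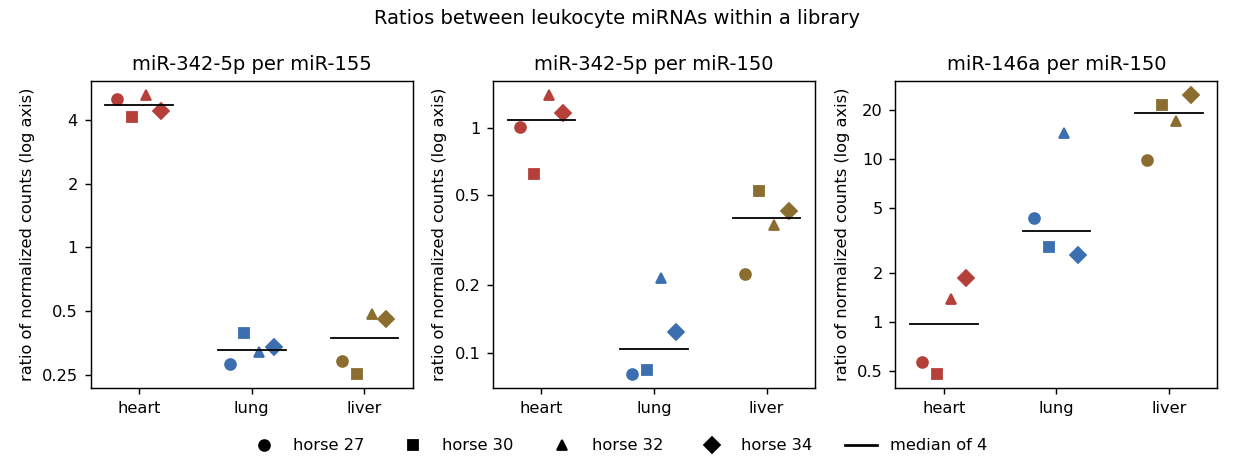
Ratios of normalized counts within each library (log axes) for 3 pairs of leukocyte miRNAs in heart, lung and liver, with a symbol for each horse and a line at the median of 4. eca-miR-342-5p per eca-miR-155 is 4.11 to 5.23 in heart and at most 0.489 elsewhere, and eca-miR-146a per eca-miR-150 rises from heart over lung to liver.

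The members did not move as 1 group over the 12 libraries. On the log2 scale, eca-miR-146a and eca-miR-146b-5p had the highest correlation of the 10 pairs without eca-miR-142-5p (Pearson r = 0.84), and eca-miR-146a and eca-miR-342-5p the lowest (r = -0.49). Once each tissue's mean had been taken off, these pairs gave 0.36 and 0.23, and all 10 pairs lay between -0.40 and 0.51. The correlations over all libraries thus mostly carry the tissue means, and the libraries share the authors' size factors.

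The known miRNAs with the pattern nearest to each member, by Pearson r over the 12 libraries, were different ones for most members. For eca-miR-146a they were eca-miR-200b (r = 0.948), eca-miR-182 (0.939) and eca-miR-96 (0.925), and for eca-miR-146b-5p they were eca-miR-21 (0.839), eca-miR-96 (0.813) and eca-miR-211 (0.813). For eca-miR-155 they were eca-miR-92b (0.972), eca-miR-449a (0.955), a miRNA of ciliated airway cells, and eca-miR-153 (0.954). Those of eca-miR-150 were eca-miR-23a (0.959), eca-miR-3548 (0.947) and eca-miR-16 (0.937). eca-miR-342-5p was nearest to eca-miR-27b (0.955), eca-miR-486-5p (0.938), an abundant miRNA of red blood cells and of muscle, and eca-miR-100 (0.936). eca-miR-142-5p had no close neighbour, with eca-miR-10b (0.757), eca-miR-1839 (0.684) and eca-miR-1271a (0.671) at the top. With 3 tissues, any miRNA with the same order of tissue means gives a high r.

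Other miRNAs with roles in blood and immune cells, most of which are also made by other cells, were read from a list of 25, of which 22 were in the table and tested. In lung versus heart 7 of the 22 were called higher and none lower (median log2 fold change 0.80), against 19.5% and 19.1% of all tested. In lung versus liver 10 were called higher and none lower (median 1.03), against 25.0% and 26.6% of all. At an unadjusted p under 0.05, 1 of the list was lower in each of these comparisons, and neither CPM nor TMM scaling called any lower. The one in lung versus heart was eca-miR-125b-5p, which passed the adjusted threshold (log2 fold change -0.99, limma adjusted p = 0.0144) and missed only the fold minimum. In heart versus liver 5 were higher and 4 lower (median 0.18), against 19.9% and 27.0% of all, so this balance was near the background. Under CPM these counts were 15 and 0, 11 and 0, and 1 and 10, so that the balance between heart and liver turned with the scaling, to a median of -1.01. eca-miR-21, which is induced in inflammation and in many other states, had means of 243607 in lung, 165923 in liver and 44288 in heart, the order of eca-miR-146a, although lung versus liver did not pass (log2 fold change 0.53, limma adjusted p = 0.0519). Its log2 fold change was 2.43 in lung versus heart (limma adjusted p = 2.13e-06) and -1.90 in heart versus liver (limma adjusted p = 1.06e-05). eca-miR-24 was lower in liver, with a log2 fold change of 2.12 in lung versus liver (limma adjusted p = 1.88e-06) and 2.34 in heart versus liver (limma adjusted p = 3.95e-07). eca-miR-125b-5p, with its highest mean in heart (191487), exceeded liver by 1.62 (limma adjusted p = 0.000529).

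Markers of red cells and vessels moved in part with the members. Of 4 red cell miRNAs listed, 2 were in the table and 1 was tested. Their summed normalized count ranged from 66906 to 160133 in the heart libraries, from 25239 to 66840 in the lung libraries and from 4150 to 6888 in the liver libraries, almost all of it eca-miR-486-5p, which is also a muscle miRNA. eca-miR-144, of red cell precursors, stood at 0 throughout heart and in 3 lung libraries, and reached 1349.7 in the lung of horse 34. In liver it ranged from 0 to 163. It is 1 of the 7 miRNAs above with a 0 beside a high value, so its zeros are not interpreted. The red cell sum followed the order of eca-miR-342-5p, with heart highest and liver lowest, and not that of the other members placed in an order above. The log2 fold change of eca-miR-486-5p was -1.44 in lung versus heart (limma adjusted p = 0.00839), and -0.11 under CPM. The endothelial eca-miR-126-5p had 312538 to 668930 in lung, 142420 to 551535 in heart and 106849 to 171543 in liver. It was called in lung versus liver (1.57, limma adjusted p = 0.00351). In lung versus heart its log2 fold change was 0.60 and not called, and under CPM it was 1.94 and called. The part of blood content, of vessels or of muscle in the members' levels was not tested.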

How the data were processed

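Small RNA libraries of the heart, lung and liver of 4 horses were prepared with a NEBNext small RNA kit and sequenced on an Illumina instrument. By the study's methods, the authors trimmed the reads and used sRNAbench with miRBase for counting (minimum of 6 reads) and DESeq2 for normalization, whereas BWA, Trimmomatic, FastQC, bcl2fastq and DESeq2 are the tools in the submitters' processing notes. The deposited values are a signal, that is, counts divided by a size factor per library. In each library all values were whole multiples, within 0.01, of the lowest value above 0 divided by 6, from which the reads were estimated. The table also holds the authors' own comparison of 2 tissues, with log2 fold changes and their errors, test statistics (a score) and p-values before and after adjustment; none of these deposited columns was used.

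Known miRNAs that reached 10 in 4 or more libraries (256) entered a limma 3.58.1 fit (R 4.3.3, variance trend, tissue means, 12 libraries together) on log2(normalized count + 1), and p-values were adjusted by Benjamini-Hochberg over all 256. Fold changes of low miRNAs are understated on this scale. For the summed share, an exact permutation test (two-sided) was run in Python 3.11.15 with numpy 2.4.6. Named were all members, the 3 miRNAs nearest in pattern to each, and members of the lists by mean level; a rule on entries named by sequence could not be applied, since no mature sequences were at hand. The members, the lists and these tests were chosen with earlier results of these data known. In the limma fit and the permutation test the libraries counted as independent, although the tissues came from the same 4 animals. All results rest on these 4 animals.

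The number in a library's title was taken as the horse, since each number occurs once per tissue and the study sampled 4 horses. The labels do not say so in words. On that reading the number pairs the libraries. Deviations from the tissue means correlated at -0.27 to 0.15 in the 12 pairs of the same horse (median -0.057) and at -0.27 to 0.36 in the 36 pairs of different horses (median 0.028). Alternatives were pseudocounts of 0.5 and 10, testing without a filter or with one that required every library of some tissue, CPM, TMM factors computed on the known miRNAs, the horse as a block, only the tissues compared, no fold minimum, other totals for the share, and each horse and library left out. The fit was tested on simulated data. Python 3.11.15, numpy 2.4.6, pandas 2.3.3 and matplotlib 3.10.9 were used for the other steps.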

Additional observations from a re-analysis of the deposited data

Results flagged for a closer look

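The liver library of horse 34 held 4607 normalized counts of eca-miR-142-5p, whereas the other 3 liver libraries were listed at 0, so that its distance to the nearest of the others took up the whole range of the group. Of the 21 groups of 4 libraries examined in this way (each member and the members' summed share in each tissue), this was the only one past Dixon's critical value at the 95% level. Chance flags about 1 in 20 groups, a rate that does not hold for libraries tied at 0. With 3 libraries at 0, the flag was certain for any other value above 0, so no conclusion is drawn from it.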

How the results depend on the processing

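Of the 18 comparisons of a member between tissues, 11 kept their direction and call in every alternative, and over 453 alternative values 427 kept both, 13 lost the call, 7 gained it and 6 changed sign. Of these 6, 4 were of eca-miR-155 in heart versus liver, not called in any of them. Over all runs with 1 horse or library left out, its values there ran from -0.16 to 0.11. The other 2 sign changes came from setting each 0 of eca-miR-142-5p to missing, chosen after seeing the data. They gave 2.44 in lung versus heart and -1.63 in heart versus liver. That sign was certain beforehand, because the detected lung and liver values lay above every heart library, and no test is drawn from it. CPM raised the members called in heart versus liver from 3 to 5. Without eca-miR-146a, the summed share of heart and liver differed by -0.00997 percentage points (exact permutation p = 0.571). The cause was not tested. With 1 horse or library left out, members called were 5 in lung versus heart, 4 to 6 in lung versus liver and 3 to 4 in heart versus liver, the calls over all tested miRNAs ran over 87 to 104, 115 to 135 and 102 to 128, and the differences in summed share over 1.21 to 1.59, 0.972 to 1.38 and -0.27 to -0.208 points.

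The replicate block (the horse in the fit) changed no member's call: 5, 5 and 3 members were called, and eca-miR-146b-5p in lung versus liver had an adjusted p of 0.0379 by limma. For the summed share, the paired exact sign exchange within 4 horses gave p = 0.125 in each comparison, the smallest p it allows. Normalized counts of near-identical miRNAs may hold each other's reads, and a value of 0 sets only an upper limit.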
